A study of Equus caballus with 3 samples.

Results

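*THY1*, the gene of the surface antigen CD90, was followed within and between equine mesenchymal stromal cells (MSCs) of 3 tissue sources. The gene is 1 of 17242, 17915 and 17213 genes with a unique molecular identifier (UMI) in the retained cells of the libraries from adipose tissue (AT), from bone marrow (BM) and from peripheral blood (PB). The deposited matrices place it on the minus strand of chromosome 7 of EquCab3.0. It was chosen by its measured level, which is low in PB, and the cells compared within a source were chosen by their *THY1* UMIs, so these levels are a description. All cells came from 1 warmblood mare aged 10 years and had been cultured for 2 passages before capture in droplets for single-cell RNA sequencing (scRNA-seq). Since each source had 1 library, tissue and library cannot be told apart, and no test across replicates was possible. Titles gave the source of each library, although the source name label reads PBMC for all 3. Within each source, MSCs with 2 or more *THY1* UMIs were then compared with MSCs that had none and the same total UMIs.

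CD90 is a small protein of the immunoglobulin superfamily that is held in the outer leaflet of the plasma membrane by a glycosylphosphatidylinositol (GPI) anchor. It has no cytoplasmic domain, binds integrins and syndecan-4 on neighbouring cells and acts on Src family kinases. It is found on fibroblasts, on MSCs and, in several species, on neurons and lymphocytes, and it is one of the positive surface antigens by which cultured MSCs are defined.

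After retention of barcodes that held 2500 to 15000 UMIs, with no more than 3% of them mitochondrial, 5403 AT-, 5580 BM- and 5318 PB-derived MSCs remained, with medians of 7291, 6874.5 and 7750 UMIs. The stromal identity on the labels matched the markers, since 10 fibroblast markers summed to 27587, 25452 and 40068 CPM (UMIs of a gene for every 1000000 UMIs of the cells), whereas 13 haematopoietic and 9 endothelial markers each summed to at most 12.7 CPM. *PTPRC*, the pan-leukocyte marker, had a row in each matrix and no UMI in the retained cells, whereas *TYROBP* of the same list matched no row by symbol and was not analysed here. One feature of the libraries touched *THY1* directly. All 5318 retained PB barcodes also occurred in the AT library, where only 37 of them were retained as cells. Among AT barcodes with at least 500 but fewer than 2500 UMIs, which were not retained, *THY1* was at 120 CPM (95% interval 110 to 131) in the 4870 whose barcode another library also held and at 664 CPM (95% interval 599 to 735) in the 316 others. Of the 280 retained AT-derived MSCs without a *THY1* UMI, 22 (7.86%) had a barcode that another library held at 2500 or more UMIs, against 80 of the 4644 (1.72%) with 2 or more. The AT comparison was therefore repeated without these cells, with a new random choice of the cells with *THY1* UMIs. Its values are given beside many of the genes and lists described or as counts.

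In AT-derived MSCs, 26587 *THY1* UMIs gave a level of 665 CPM (95% Poisson interval 657 to 673). In BM, 21378 UMIs gave 531 CPM (524 to 538), and in PB, 3768 UMIs gave 90.5 CPM (87.7 to 93.5). These intervals, like all intervals here, cover counting error only. The 3 intervals did not overlap, and each neighbour in the order AT, BM and PB was separated by more than counting error. AT lay 7.35-fold (95% interval 7.10 to 7.6) and BM 5.87-fold (95% interval 5.67 to 6.08) above PB, while AT exceeded BM only 1.25-fold (95% interval 1.23 to 1.27). Of 2396 genes with a mean of at least 50 CPM over the sources, 7 (0.292%), *THY1* among them, were at least 5-fold higher in both AT and BM than in PB. Ranked by UMIs within its library, *THY1* was the gene at place 187 in AT, 255 in BM and 1331 in PB. In PB, 2420 of the 5318 cells still held at least 1 UMI.

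The share of cells with at least 1 *THY1* UMI was 94.8% in AT, with a 95% Clopper-Pearson interval of 94.2 to 95.4%. It was 92.0% (91.2 to 92.7%) for BM, and for PB 45.5% (44.2 to 46.9%). The middle cell of AT held 4, that of BM 3 and that of PB 0 UMIs, and the highest cells held 30, 32 and 8. AT and BM differed more in the upper part of this distribution, since 47.6% of AT- and 32.9% of BM-derived MSCs held 5 or more UMIs. In PB, 31 cells (0.583%) reached that number and 0 reached 10, which allows a share of up to 0.0693%. After each cell was thinned to 2500 UMIs, the shares with a *THY1* UMI were 76.6%, 68.6% and 18.9%. The cultures held no cell type known to lack *THY1*, and what share of cells would show a UMI from ambient RNA could not be read from them.

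**Figure D1:**
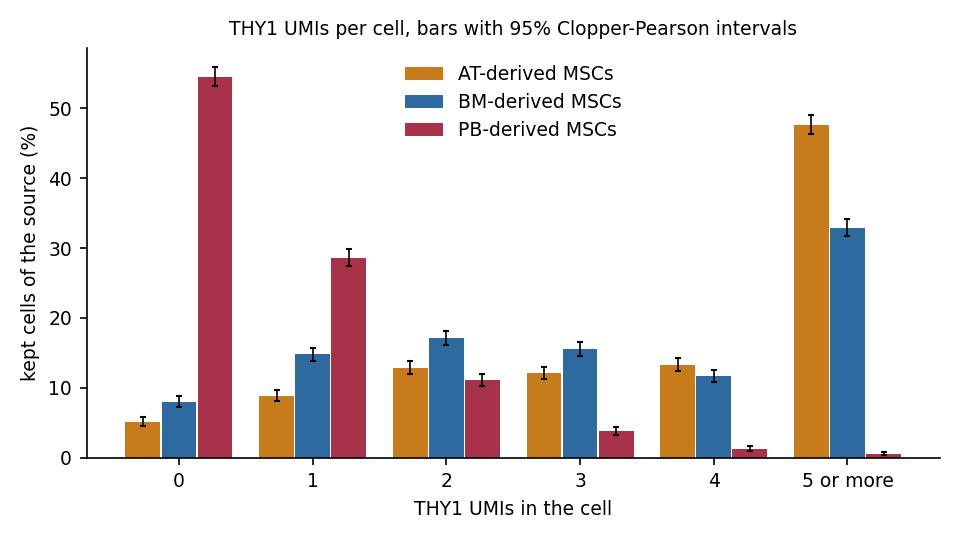
Percentage of the retained cells of each source (y axis, with 95% Clopper-Pearson intervals) by the number of *THY1* UMIs in the cell (x axis). PB-derived MSCs peak at 0 UMIs with 54.5% of cells, whereas 47.6% of AT- and 32.9% of BM-derived MSCs fall in the class of 5 or more.

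Cells without a *THY1* UMI were compared in number with a counting model. If every cell had expressed *THY1* at the level of its source and only its own depth and Poisson counting had varied, 0 UMIs would have been found in 2.38% of the cells from AT, 4.25% from BM and 50.6% from PB. The measured shares were 5.18%, 8.03% and 54.5%. They were above the model in each source, and cells that lacked the transcript cannot be told apart from cells in which it was not counted. Just outside the class of 2 or more UMIs were 479, 826 and 1521 cells with 1 UMI, and just inside it 697, 954 and 594 cells with 2. Beyond counting and depth, the coefficient of variation of *THY1* between AT-derived MSCs was 38.5%, and in BM and PB it reached 55.3% and 57.6%. Among genes within 1.5-fold of its level, 39.7% of 136 genes in AT, 22.1% of 222 in BM and 14.1% of 1029 in PB varied more, and their medians were 31.9%, 34.7% and 34.5%. *THY1* was thus above the median of genes of like level in each source. The tenth of cells with the most *THY1* held 24.7%, 27.8% and 40.2% of its UMIs in the order AT, BM and PB. Unlike the coefficients of variation, these shares include counting and depth, whose part in them was not tested.

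*THY1* differed with the depth of a cell in each source and with its cell cycle phase in AT and BM. In BM-derived MSCs, *THY1* was at 588 CPM in cells with fewer than 5000 UMIs, 572 CPM below 7500, 507 CPM below 10000 and 470 CPM above, and these steps ran in 1 direction. In AT it was 588 CPM in the shallowest class, 674 and 690 CPM in the middle classes and 641 CPM in the deepest. AT and BM were therefore alike in the shallowest cells, with 95% intervals of 563 to 615 and 564 to 613 CPM, and apart in all deeper cells. PB went the other way, from 75.7 to 86.7, 92.6 and 94.8 CPM over the same classes, and stayed below the other sources throughout. By called phase, *THY1* in BM was 583 CPM in G1, 474 in S and 405 in G2/M, without overlap of the intervals. AT was at 677, 678 and 605 CPM, with only G2/M lower. In PB the values of 90.9, 92.1 and 87.4 CPM had overlapping intervals. Cells called S or G2/M in BM also had more UMIs, and the parts of depth and phase were not tested.

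**Figure D2:**
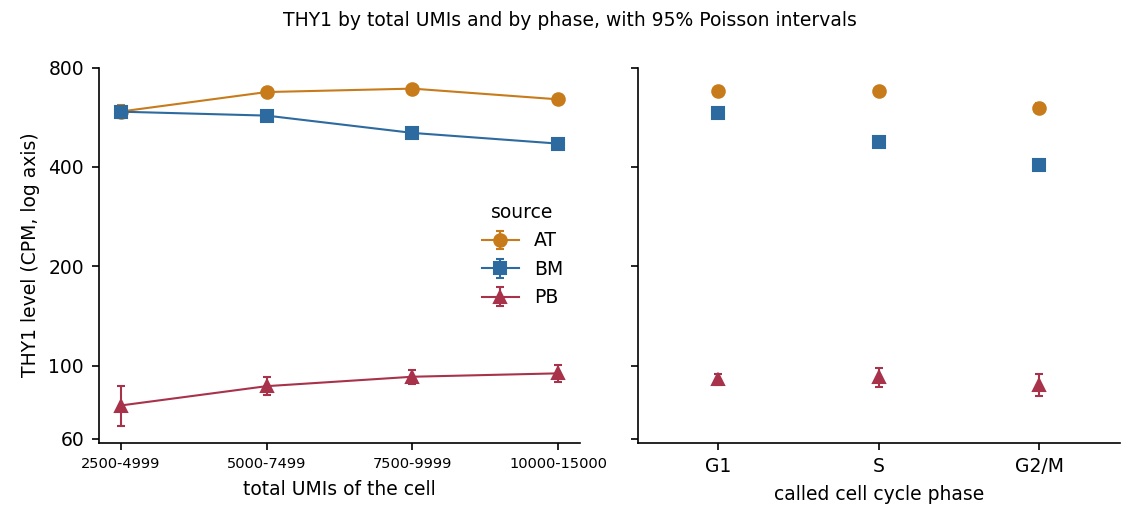
*THY1* level in CPM (y axis, log scale, with 95% Poisson intervals) by the total UMIs of the cell (left) and by called cell cycle phase (right) for the 3 sources. BM descends from 588 to 470 CPM with depth and from 583 to 405 CPM from G1 to G2/M, and all PB values lie below 100 CPM.

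Clusters were rebuilt within each source with *THY1* left out of the variable genes. In BM, *THY1* ranged from 357 CPM (95% interval 334 to 382) in the cluster led by the mitotic genes *CDCA3*, *REEP4* and *BIRC5*, in which 65.8% of cells were called S or G2/M, to 667 CPM (95% interval 647 to 687) in the cluster led by *IGF2*, the insulin-like growth factor II gene, and *SAT1*. The second lowest BM cluster, led by *TCF19*, *CKS2* and *UBE2C*, was also a cycling one, with 99.6% of cells in S or G2/M and 408 CPM. The log2 range over BM clusters of at least 100 cells was 0.90. In AT it was 0.42, from 584 CPM in the *TOP2A*, *UBE2C* and *CENPF* cluster, where 100% of cells were called S or G2/M, to 783 CPM (95% interval 754 to 813) in the cluster led by *ID1* and *ID3*, 2 target genes of bone morphogenetic protein signalling. An AT cluster led by *MGP*, *LGALS3* and *IGFBP6* followed with 762 CPM (95% interval 741 to 782). The AT cluster with the smooth muscle genes *DES*, *ACTG2* and *CNN1* was intermediate, at 657 CPM.

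In PB the lowest cluster was again led by *CDCA3*, *REEP4* and *STMN1*, with 63.0 CPM (95% interval 52.1 to 75.5) in 250 cells. The highest of at least 100 cells was a cluster of 147 cells led by *NSG1*, *MGP*, *DPYSL3* and *THBS2*, with 100 CPM (95% interval 81.9 to 121), and the log2 range was 0.66. The other PB cluster with mostly cycling cells, led by *UBE2C* and *ACTG2*, was at 98.9 CPM (95% interval 89.7 to 109), so a cycling label did not mark the low level there. The cluster led by *CCL20*, *CXCL6* and *CCL2* was at 85.9 CPM, and the 37 cells led by *CXCL11* and *CXCL10* were at 104 CPM (95% interval 69.0 to 150). Of the 10 PB clusters, the lowest was the only one whose interval did not reach that of the cluster led by *PTN* and *VIM*, at 93.9 CPM (95% interval 87.1 to 101). None of the PB clusters came near an AT or BM cluster, since the lowest BM cluster was 3.54-fold above the highest PB cluster of at least 100 cells. That every PB cluster lay below every AT and BM cluster held for 38 of 2396 genes (1.59%). AT and BM clusters overlapped, from 584 to 783 CPM and from 357 to 667 CPM, whereas 5.43% of the genes had every AT cluster above every BM cluster. Of 1757 genes, 70.5% in AT and 71.9% in PB had a higher standard deviation of log2 level between clusters than *THY1*. In BM, 35.2% had. These genes were not limited to the level of *THY1*, and the standard deviations include counting error, whose part was not tested.

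**Figure D3:**
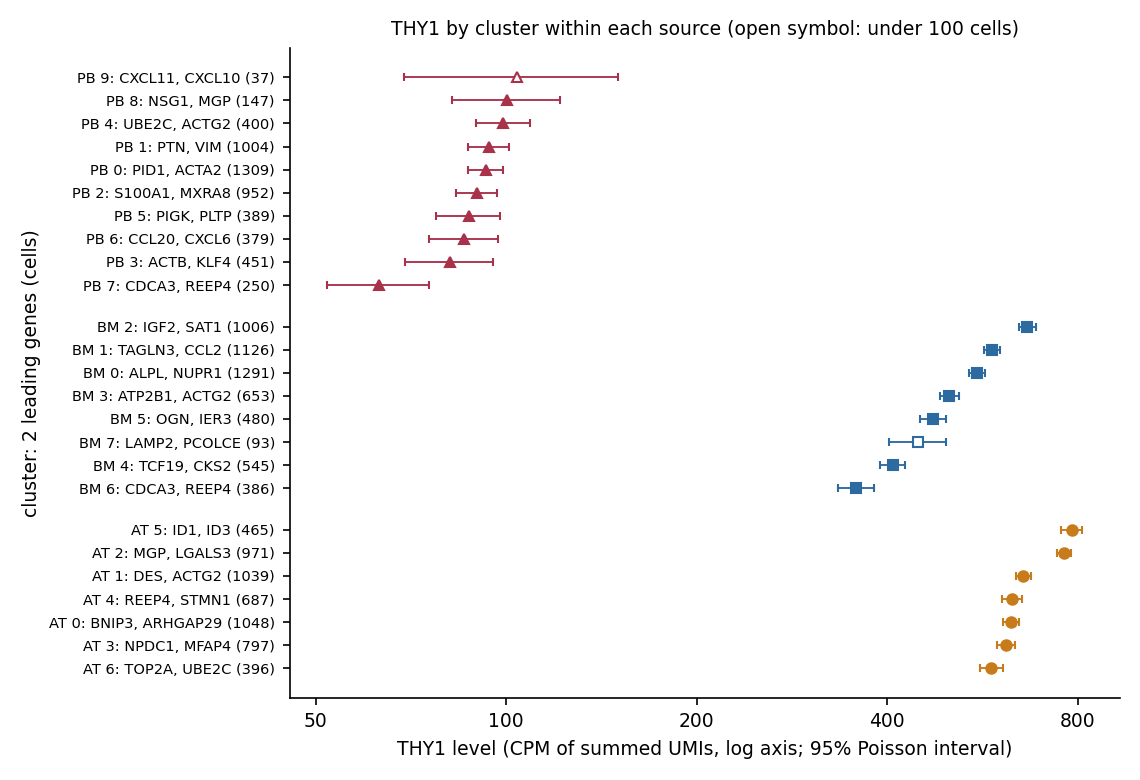
*THY1* level of each cluster in CPM (x axis, log scale, with 95% Poisson intervals), with clusters on the y axis named by their 2 leading genes and number of cells. Every PB cluster lies at or below 104 CPM and every AT and BM cluster at or above 357 CPM, and the clusters led by *CDCA3* and *REEP4* are the lowest of BM and of PB.

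The genes whose level over the 23 clusters of at least 100 cells was most like that of *THY1*, centred within each source, were *TRIP6* (Pearson's r = 0.74), which encodes a LIM domain protein of focal adhesions, *RAB34* (r = 0.67), a small GTPase of vesicle transport, *DNASE1L1* (r = 0.63), *PTTG1IP* (r = 0.62) and *SEC61B* (r = 0.59), a subunit of the translocation channel of the endoplasmic reticulum. For *TRIP6*, r was 0.54 over 7 AT, 0.69 over 7 BM and 0.92 over 9 PB clusters. At the opposite end were *JPT1* (r = -0.64), *REEP4* (r = -0.63), *H2AFZ* (r = -0.62), the gene of a histone H2A variant, *DYNLL1* (r = -0.62) and *TAF12* (r = -0.61). Clusters of a source share 1 library, so these values describe the clusters, of 1757 genes compared, and carry no test.

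For the comparison within sources, 280 AT-, 448 BM- and 874 PB-derived MSCs were drawn from each class at equal total UMIs. The medians of the MSCs with 2 or more *THY1* UMIs were 3930.5, 5705 and 8653 UMIs, and those of the MSCs without were 3905.5, 5711 and 8670.5. In AT the comparison thus covered shallow cells, since the median of all AT cells with 2 or more UMIs was 7563.5. The shares of G1 cells were 50% and 51.8% in AT, 72.8% and 63.6% in BM and 61.4% and 60.1% in PB, for MSCs with and without *THY1* UMIs. *THY1* itself was at 763, 709 and 279 CPM in the 3 drawn groups with 2 or more UMIs.

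Few genes differed by 1.5-fold or more between these groups. Past this ratio were 21 of 2235 genes (0.94%) in AT, 12 of 2606 (0.46%) in BM and 1 of 2305 (0.0434%) in PB. Of these, 7, 6 and 1 were higher and 14, 6 and 0 were lower in MSCs with *THY1* UMIs. These counts rest on groups of unequal size, since the smaller drawn group of AT held 1319162 UMIs, that of BM 2636045 and that of PB 7822900. The classes also differ between sources. The counting model at the level of the source put 50.6% of PB cells at 0 UMIs, of 54.5% measured. In AT it put 2.38% there, of 5.18% measured, and in BM 4.25% of 8.03%. In PB the class without a UMI may thus hold mostly cells at the level of the source, and the part of this in the counts was not tested. The order of the counts turned when all cells were thinned to 2500 UMIs and classed anew, with 1 gene past 1.5-fold in AT and 80 in PB, where the class with 2 or more *THY1* UMIs then held 132 cells, against 2493 in AT. With all cells weighted the AT count was 12. The BM count was 28 in a second draw, and 6 of the 12 BM genes were past the ratio in the same direction there too. Without shared barcodes the AT count was 31, of which 5 were past the ratio in the same direction as before, and the PB count was 0. These 5 AT genes were looked up for this after their values had been seen. They were *FXYD1*, *CALCA*, the chemokine gene *CCL26*, *SMIM26* and a gene without a symbol. The log2 ratios of *CCL26* and *SMIM26* in the draw were -0.59 and -0.62. For *CALCA*, 34 of the 132 UMIs in the drawn AT cells without *THY1* UMIs came from 1 cell. Of the 78 named genes tested in AT, 65 kept their sign and 68 stayed inside their interval without these barcodes. In this repeat the MSCs with 2 or more *THY1* UMIs were also drawn anew, so removal and new draw cannot be told apart. A second draw of AT cells with all barcodes gave 10 genes higher and 21 lower past the ratio. Of the first draw, 8 AT genes were past it in the same direction there too. None of the 1980 genes that reached 50 CPM in all 3 comparisons was past 1.5-fold in each, in either direction. Higher in each source by any amount were 248 of them (12.5%), and lower in each were 358 (18.1%). Each source has 1 library and cells are not replicates, so the ratios have counting intervals but no p-value.

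*IGFBP6*, which encodes an insulin-like growth factor binding protein with a preference for IGF2, was higher with *THY1* in each source. It was at 366 CPM in AT-derived MSCs with 2 or more *THY1* UMIs and 269.9 CPM in those without, a log2 ratio of 0.44 (95% interval 0.24 to 0.64), or 0.33 without shared barcodes. In BM the levels were 832 and 749.6 CPM (0.15, 95% interval 0.06 to 0.24) and in PB 499.6 and 426 CPM (0.23, 95% interval 0.16 to 0.30). It was the only one of the 8 genes named for being highest in all 3 comparisons that kept its sign in every one of 14 alternatives in every source. Its lowest ratios in these were 0.14 in AT in G1 cells, 0.02 in BM without matching and 0.15 in PB for 1 or more UMIs. As it was named for having the same direction in all 3 sources, the direction itself is no support. The pseudocount of 25 CPM, 1 of these alternatives, used the same sums and could not change a sign. In AT and BM all MSCs without *THY1* UMIs were drawn, so the second draw changed only the other group. The other 7 of these 8 genes were *CYB5R3*, *HSPB6*, *MYL9*, *THBS1*, *THBS2*, *WSB1* and *XG*. Each was at most 0.40 higher on the log2 scale. Among these, *THBS2*, a matricellular thrombospondin gene, was higher by 0.24 in AT and 0.21 in PB in the draw and by 0.26 and 0.20 with all cells weighted, and by 0.13 in AT without shared barcodes, but its 0.30 in BM became -0.01. *MYL9*, the regulatory light chain of smooth muscle myosin, was higher by 0.19 in BM and 0.15 in PB and kept that sign in every alternative there. In AT its 0.14 turned to -0.04 in a second draw of cells and to -0.02 without shared barcodes. *THBS1* was higher by 0.40 (95% interval 0.27 to 0.54) in BM but by 0.14 both in a second draw and within clusters. Its 0.22 in AT turned to -0.22 in a second draw and to -0.17 without shared barcodes.

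*GSPT1*, which encodes a translation termination factor, *COPS6*, a subunit of the COP9 signalosome, and *MRPL16*, a mitochondrial ribosomal protein gene, were lower with *THY1* in each source and kept that sign in every alternative. *GSPT1* was at 52.2 and 85.7 CPM in AT-derived MSCs with and without *THY1* UMIs, a log2 ratio of -0.70 (95% interval -1.17 to -0.27) that was -0.43 without shared barcodes, and at -0.25 in BM and -0.16 in PB, where the intervals reached 0. *COPS6* was at -0.28 in AT, -0.46 (95% interval -0.78 to -0.15) in BM and -0.23 (95% interval -0.43 to -0.03) in PB. The BM value was -0.24 with all cells weighted, -0.16 in a second draw and -0.02 without high Scrublet scores. *MRPL16* was at -0.36, -0.15 and -0.28 in the same order, with only the PB interval (-0.48 to -0.10) excluding 0. Without shared barcodes the AT values of *COPS6* and *MRPL16* were -0.29 and -0.40. Because these genes were named for having the same direction in all 3 sources, the direction itself is no support. The other 5 of this group, *ADH5*, *CYP51A1*, *LSM1*, *SDHA* and *SURF2*, changed sign in at least 1 alternative in at least 1 source.

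**Figure D4:**
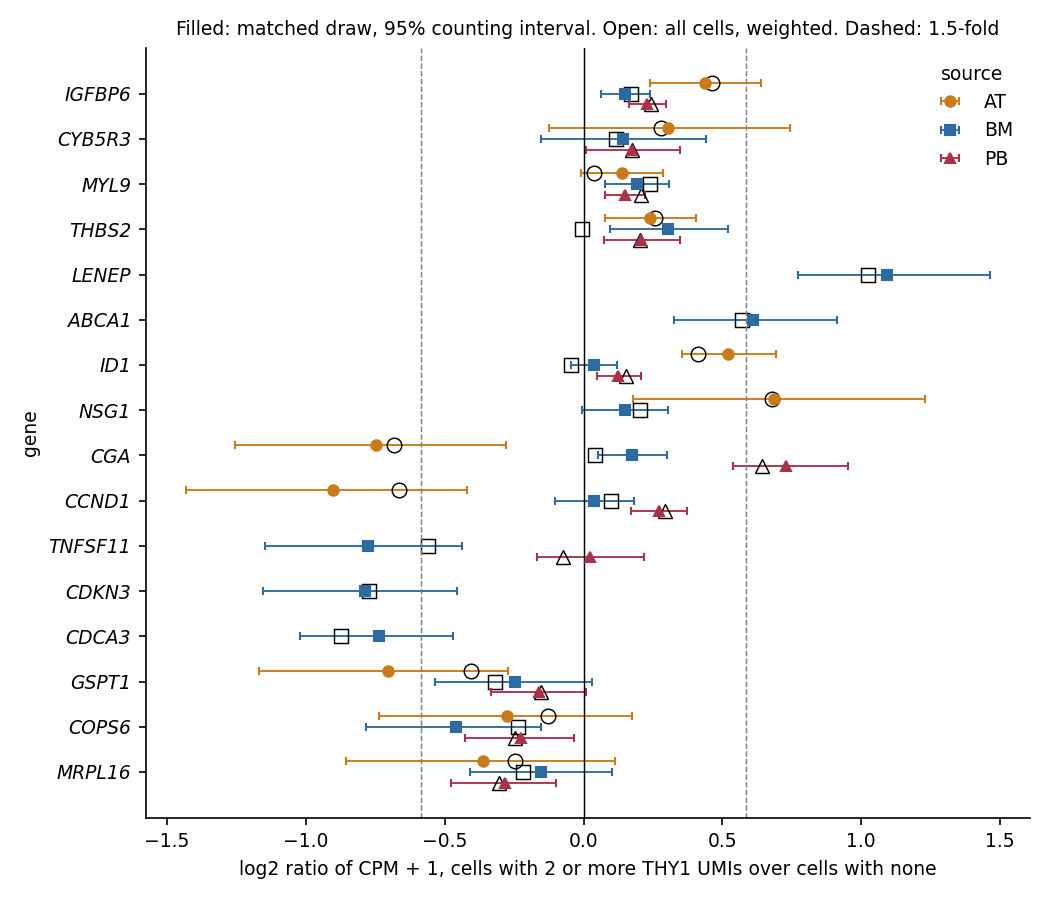
Log2 ratio of CPM + 1 between MSCs with 2 or more and with no *THY1* UMIs (x axis) for 16 genes (y axis), where filled symbols are the drawn cells with 95% counting intervals, open symbols all cells weighted to equal total UMIs, and dashed lines 1.5-fold. *IGFBP6* lies right of 0 in all 3 sources and *GSPT1*, *COPS6* and *MRPL16* left of it, whereas *CGA* lies at -0.75 in AT and 0.73 in PB. A source is shown where the gene reached 50 CPM.

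Of the 6 genes past 1.5-fold lower in BM, *CDKN3*, *CDCA3* and *UBE2C* are genes of mitosis and its control. The other 3 were *TNFSF11*, *PSMC6*, a proteasome subunit gene at -0.59 (95% interval -0.94 to -0.26), and a gene without a symbol. *PSMC6* was below 0 but short of 1.5-fold in every alternative, at -0.34 with all cells weighted and -0.16 within clusters. *CDKN3*, a phosphatase of cyclin-dependent kinases, was at 41.3 CPM with and 72.1 CPM without *THY1* UMIs (log2 ratio -0.79, 95% interval -1.16 to -0.45). *CDCA3*, a regulator of mitotic entry, was at 67.5 and 113 CPM (-0.74, 95% interval -1.02 to -0.47), and *UBE2C*, the ubiquitin-conjugating enzyme of the anaphase-promoting complex, at 99.7 and 162 CPM (-0.69, 95% interval -0.93 to -0.47). G2/M cells made up 10.5% of the group with and 18.1% of the group without *THY1* UMIs. The cluster led by *CDCA3* and *REEP4* held 4.69% and 12.7% of these groups, and the one led by *IGF2* held 24.1% and 13.6%. When cells were matched within phase, *CDKN3* and *CDCA3* were at -0.25 each and *UBE2C* at -0.44, and among G1 cells alone *UBE2C* was at 0.14. Matched within cluster they were at -0.35, -0.64 and -0.66 in the order *CDKN3*, *CDCA3* and *UBE2C*. *TNFSF11*, the RANK ligand gene, was at 40.6 and 70.2 CPM in BM (-0.78, 95% interval -1.15 to -0.44). Its ratio was -0.76 within phase, but it was short of 1.5-fold at -0.56 with all cells weighted and at -0.17 when thinned. In PB, which expressed it at a like level of 58.1 and 57.1 CPM, its ratio was 0.02. *LENEP* was the gene with the largest higher level in BM, at 85.3 and 39.4 CPM (1.09, 95% interval 0.77 to 1.46), and its ratio was 0.57 to 1.16 in a second draw, within phase, within clusters and after thinning, each time higher, but short of 1.5-fold at 0.57 in the second draw and at 0.56 without matching. No *LENEP* UMI was counted in the drawn AT cells, and its level in the drawn PB groups was 0.639 and 1.66 CPM. *ABCA1*, a cholesterol exporter gene, was at 93.7 and 61.1 CPM in BM (0.61, 95% interval 0.32 to 0.91) and at 0.33 or more in all alternatives. The 0.74 of *ACTG2* in BM did not hold, as it was -0.24 in a second draw.

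The 1 gene past 1.5-fold in PB was *CGA*, which encodes the alpha subunit shared by the glycoprotein hormones. It was at 66.3 CPM in PB-derived MSCs with 2 or more *THY1* UMIs and 39.6 CPM in those without (log2 ratio 0.73, 95% interval 0.54 to 0.95), and *CGA* UMIs were found in 24.0% and 18.9% of these cells. Its ratio stayed between 0.23 and 0.98 in the alternatives, and at 0.54 without shared barcodes it was short of 1.5-fold. Next among PB genes with a symbol were *ACTG2*, smooth muscle gamma actin, at 86.4 and 57.9 CPM (0.57, 95% interval 0.40 to 0.75), and *MAP2K3*, a kinase upstream of p38, at 63.6 and 47.0 CPM (0.43, 95% interval 0.24 to 0.63). For 1 or more UMIs against none these ratios were 0.06 and 0.17. *ACTG2* was at 78.3, 59.9, 102 and 156 CPM in PB cells with 0, 1, 2 to 3 and 4 or more *THY1* UMIs, at equal total UMIs. Lowest in PB were *RCN2*, a calcium-binding protein of the secretory pathway, at -0.38 (95% interval -0.57 to -0.20), and *PLTP*, the phospholipid transfer protein, at -0.33 (95% interval -0.46 to -0.22), both below 0 in every alternative. In PB, where the drawn groups held the most UMIs, 90% of all genes had log2 ratios between -0.13 and 0.15, against -0.36 and 0.31 in AT, where they held the fewest, and -0.26 and 0.25 in BM. When cells were thinned and classed anew these limits were -0.43 and 0.40 in PB, -0.20 and 0.19 in AT and -0.27 and 0.21 in BM, and the smaller class of each held 330000, 3162500 and 4385000 UMIs. The part of group size in these ranges was not tested.

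In AT, *FXYD1*, a regulator of the sodium pump, was at 110 and 72.8 CPM with and without *THY1* UMIs (log2 ratio 0.59, 95% interval 0.22 to 0.99), and *NSG1*, an endosomal protein, at 62.8 and 38.7 CPM (0.68, 95% interval 0.18 to 1.23). Both were higher in every alternative, and they were 0.61 and 0.63 without shared barcodes. There *NSG1* was at 59.7 and 38.3 CPM, short of 50 CPM over both groups together, and so was not among the genes counted. *IL11* had the highest ratio of AT, at 0.95, but 86 of its UMIs, 87.8% of those in the drawn group, came from 1 cell, and it was negative in 11 of 14 alternatives. *CCND1*, the cyclin D1 gene, was at 39.3 and 74.3 CPM (-0.90, 95% interval -1.43 to -0.42) and *CGA* at 43.8 and 74.3 CPM (-0.75, 95% interval -1.25 to -0.28). Without shared barcodes these ratios were -0.33 (95% interval -0.90 to 0.22) and -0.54 (95% interval -1.05 to -0.06), both short of 1.5-fold. In the 22 AT cells that had no *THY1* UMI and a shared barcode, *CCND1* was at 543 CPM (95% interval 378 to 755), against 50.2 CPM (95% interval 38.6 to 64.2) in the 258 others. *ALPL*, the tissue-nonspecific alkaline phosphatase, was at 295 CPM (95% interval 177 to 460) in the same 22 cells and at 1.59 CPM (95% interval 0.193 to 5.76) in the others, while its level was 2.88 CPM in all AT- and 326 CPM in all PB-derived MSCs. *ALPL* was looked up after these barcodes had been seen. Their part in the AT ratios beyond these values was not tested. *CALCA* (-1.12) and *G0S2* (0.74) in AT each changed sign in at least 1 alternative. Without shared barcodes *CALCA* was at -0.70, and *G0S2* was short of 1.5-fold at 0.40 (95% interval -0.13 to 0.96).

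Among the members of the gene lists described here that reached 50 CPM, none but *ACTG2* and *UBE2C* passed 1.5-fold in any source. Of 10 binding partners, *ITGB1*, the integrin beta 1 subunit, was the only one at 50 CPM in all sources, with log2 ratios of -0.34 in AT, -0.07 in BM and 0.16 (95% interval 0.06 to 0.26) in PB. The AT value was -0.06 without shared barcodes. *ITGB5* was at 0.05 in BM, whereas *ITGAV* and *ITGB3* matched no row of the matrices by symbol and were not analysed here, like *CD59* of the GPI-anchored and *CD81* of the antigen list. Of 30 other GPI-anchored surface proteins, 1 in AT, 3 in BM and 4 in PB reached 50 CPM, and *LY6E* was the only one that did so in all, at 0.36 (0.13 without shared barcodes), 0.07 and 0.12. *GAS1*, a GPI-anchored growth arrest protein, was at -0.48 (95% interval -0.80 to -0.19) in BM. It was -0.26 there with all cells weighted, -0.21 in a second draw and 0.02 when thinned. Of 29 genes of GPI anchor assembly, 3, 4 and 5 reached 50 CPM, with median log2 ratios of 0.12 (-0.01 over 4 genes without shared barcodes), 0.02 and -0.09, beside -0.02, -0.01 and 0.00 for all genes tested. In that list *PIGK*, a subunit of the GPI transamidase, was at -0.27 (95% interval -0.44 to -0.11) in PB, and at -0.13 within clusters. *PIGK* and *PLTP* led a PB cluster that held 7.09% of the drawn MSCs with and 8.81% of those without *THY1* UMIs. Of the 14 genes of Src family kinases and raft adaptors, 4 of 5 at 50 CPM were higher in AT (2 of 5 without shared barcodes), 4 of 5 in BM and 4 of 6 in PB, beside 44.4%, 46.7% and 51.5% of all genes tested, with medians of 0.03 (-0.09 without shared barcodes), 0.09 and 0.08. The BM count depended on the draw. *CAV1* was at 0.04 in BM but at -0.15 with all cells weighted and -0.10 in a second draw, and the 0.15 of *CAVIN1* there became -0.01 in a second draw. In PB the Src family kinase gene *FYN* was at -0.12 and the flotillin gene *FLOT1* at -0.05, while the caveolin gene *CAV2* was at 0.27 (95% interval 0.11 to 0.45) and *CAV1* at 0.20 (95% interval 0.08 to 0.32), although *CAV1* was at -0.19 in AT with an interval that reached 0.

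Of the contractile genes at 50 CPM, 3 of 9 were higher in AT, 8 of 9 in BM and 7 of 7 in PB, beside 44.4%, 46.7% and 51.5% of all genes tested, with medians of -0.13, 0.13 and 0.15. Without shared barcodes 0 of 9 were higher in AT, with a median of -0.16. *TAGLN* (transgelin) was at -0.12 in AT, 0.10 in BM and 0.15 (95% interval 0.12 to 0.19) in PB, and *ACTA2*, smooth muscle alpha actin, at -0.58 (95% interval -0.72 to -0.44, and -0.51 without shared barcodes), 0.10 and 0.23 (95% interval 0.17 to 0.29). In AT, *ID1* was at 527 and 367 CPM (0.52, 95% interval 0.35 to 0.69) and *ID3* at 443 and 327 CPM (0.43, 95% interval 0.25 to 0.62). The ratios were 0.35 and 0.56 without shared barcodes. Over the 14 alternatives, *ID1* ran from 0.15 within phase to 0.57, and *ID3* from 0.22 for 3 or more UMIs to 0.71. In BM, where the lower of both genes still reached 893 CPM, they were at 0.04 and 0.08, and the value of *ID1* kept its sign in 3 of 14 alternatives. In PB they were at 0.13 (95% interval 0.05 to 0.21) and 0.08, and both kept their sign in all 14. The cells in the AT cluster led by *ID1* and *ID3* made up 8.93% of the drawn MSCs with and 3.21% of those without *THY1* UMIs. Among the other MSC surface antigens, *CD44* was at 0.19 (95% interval 0.05 to 0.32) in AT, -0.03 in BM and 0.09 in PB. Its AT value was 0.18 without shared barcodes. *ENG* was at -0.42 (-0.28 without shared barcodes), 0.14 and -0.05 with every interval reaching 0, and *B2M* at 0.14, -0.13 and 0.04. Of these antigens, 10 of 20 reached 50 CPM in AT, 9 in BM and 8 in PB, with medians of 0.11, -0.03 and 0.04. Collagens and matrix genes had medians of 0.06, 0.07 and 0.00 over 16, 17 and 17 genes, and fibroblast markers 0.09, 0.05 and -0.01 over 6, 6 and 7. Osteoblast genes had medians of 0.06, -0.05 and -0.02 over 2, 4 and 3 genes. Of the adipocyte list, *PLIN2*, the gene of the lipid droplet protein perilipin 2, was at -0.40, 0.17 and -0.09, and *CEBPB*, a transcription factor gene that reached 50 CPM only in PB, was at 0.06 there, with intervals that reached 0. S phase genes had medians of -0.21, 0.06 and 0.12 over 1, 3 and 2 genes, and G2/M genes 0.01, -0.57 and 0.00 over 2, 3 and 3 genes. Of the cartilage and tendon list, only *EGR1* reached 50 CPM, in BM, at 0.30. Pericyte and smooth muscle markers had medians of -0.42, 0.06 and 0.23 over 2, 2 and 1 genes, and epithelial markers, of which *KRT18* and *KRT19* matched no row, summed to 45.7, 1.62 and 0.0721 CPM. Without shared barcodes the AT medians were 0.09 for the antigens, 0.03 for matrix genes, 0.09 for fibroblast markers, 0.07 for osteoblast genes, -0.19 for *PLIN2*, -0.09 for S phase genes, -0.41 for G2/M genes and -0.51 for the pericyte and smooth muscle markers.

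The direction of these differences was also followed over 4 classes of *THY1* UMIs (0, 1, 2 to 3, and 4 or more) at equal total UMIs. *IGFBP6* went from 281 to 319, 354 and 411 CPM in AT and from 751 to 767, 793 and 920.2 CPM in BM, whereas in PB it went from 402 to 485 CPM at 2 to 3 UMIs and was at 435 CPM in the 101 cells with 4 or more. *CDCA3* was at 116, 99.8, 74.4 and 45.8 CPM in BM and at 58.0, 56.3, 46.0 and 35.2 CPM in AT, and showed no such order in PB. *CGA* in PB was at 44.4, 52.8, 75 and 135 CPM, an order that was not followed there without shared barcodes. *ID2* went from 38.2 to 76.3 CPM in AT and from 51.4 to 85.3 CPM in PB, in order in both, and stayed between 140 and 153 CPM in BM. *GSPT1* and *COPS6* descended in order in BM and PB. Without shared barcodes *IGFBP6* and *ID2* still went upwards in order in AT, the former from 279 to 413 CPM, whereas *CDCA3* was at 55.5, 55.9, 46.1 and 35.7 CPM. The 101 cells of the last PB class make its values the least precise.

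**Figure D5:**
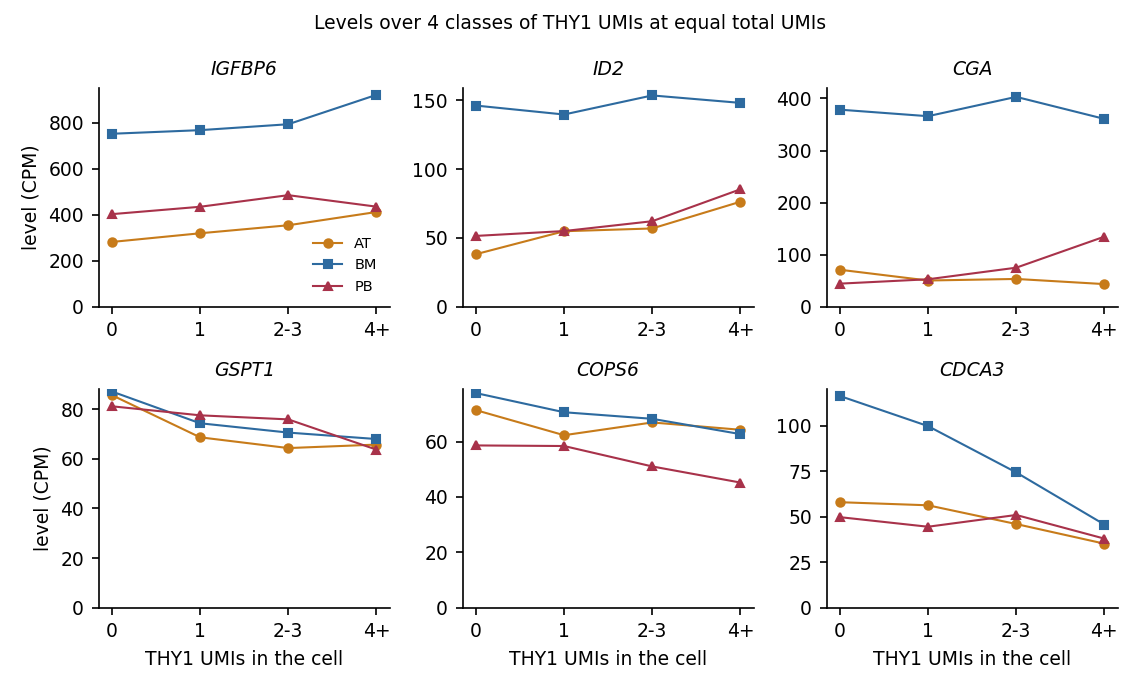
Level of 6 genes in CPM (y axes, from 0) over 4 classes of *THY1* UMIs per cell (x axes) in the 3 sources, with cells weighted to equal total UMIs in each class. *CDCA3* descends from 116 to 45.8 CPM in BM, and *CGA* goes from 44.4 to 135 CPM in PB but from 71.1 to 43.5 CPM in AT.

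The neighbours of *THY1* in the RefSeq gene order that had a row in the matrices were *USP2* and *MFRP*. They were at 1.15 and 0.275 CPM in AT, 1.96 and 0.895 CPM in BM and 0.985 and 0.505 CPM in PB. Both were therefore far below *THY1* in each source.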

How the data were processed

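Equine MSCs from AT, BM and PB were profiled in 1 library each. The authors mapped reads to EquCab3.0 with CellRanger, and their UMI counts were made by ESAT. The deposited values are these whole-number counts, not normalized. Retained were barcodes of 2500 to 15000 UMIs, no more than 3% of them mitochondrial. Levels are CPM of UMIs summed over cells, which total 39980656, 40239295 and 41622445 UMIs. A floor of 3 UMIs is 0.0750, 0.0746 and 0.0721 CPM.

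Within each source, cells with 2 or more *THY1* UMIs and cells with none were drawn in equal numbers per bin of 500 UMIs, not counting *THY1*, from 1 random seed. Ratios are differences of log2(CPM + 1) with exact counting intervals, over genes with at least 50 CPM in both groups together. The computation was tested on simulated counts. For clusters, 3000 variable genes from sctransform 0.4.2 and 14, 23 and 20 principal components were used at resolution 0.6 (Seurat 5.3.0, R 4.3.3), and CellCycleScoring called phases. Scrublet scores came from Scanpy 1.11.5, intervals from SciPy 1.17.1, and edgeR 4.0.16 and DESeq2 1.42.0 gave scaling factors only. The multiplet caller of the study was not run. Named genes are the 8 highest and 8 lowest over all 3 sources, the 5 highest and 5 lowest per source, the 5 most and 5 least alike over clusters, and the highest and lowest member of each of 19 lists, of which 1 is not reported here, beside members and leading genes given for context. Of 105 named genes, 104 matched the RefSeq table by symbol. *THY1*, the lists and the alternatives were chosen with earlier results of these data known. Sequences were not analysed here.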

Additional observations from a re-analysis of the deposited data

Results flagged for a closer look

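4 named genes lay on opposite sides in 2 sources, with counting intervals that excluded 0 on both sides and 1.5-fold passed in at least 1 source. With 1 library per source, the difference between sources was not tested. The log2 ratio of *CGA* between MSCs with 2 or more and with no *THY1* UMIs was -0.75 in AT, 0.18 in BM and 0.73 in PB, that of *CCND1* was -0.90 in AT and 0.27 in PB, and that of *G3BP1* was -0.75 in AT and 0.21 in PB. *ACTG2* was at -0.49 in AT, 0.74 in BM and 0.57 in PB, and its BM value turned negative in 3 alternatives and its AT value positive in 1, at 0.41 in G1 cells. Its PB value was 0.06 for 1 or more UMIs against none. Without shared barcodes the AT values were -0.54, -0.33, -0.45 and -0.60 for *CGA*, *CCND1*, *G3BP1* and *ACTG2*, and within clusters that of *CCND1* was -0.11. The PB value of *CGA* without shared barcodes was 0.54, so *CGA*, *CCND1* and *G3BP1* then passed 1.5-fold in none of the sources, and the interval of *CCND1* in AT without shared barcodes reached 0. The BM value of *CGA* kept its sign in 7 of 14 alternatives, whereas the AT and PB values of *CGA* and *CCND1* kept theirs in all 14.

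*THY1* UMIs were also counted in AT barcodes below the UMI limit. In AT barcodes with at least 500 but fewer than 2500 UMIs its level was 120 CPM where another library also held the barcode and 664 CPM where none did, beside 90.5 CPM in PB- and 665 CPM in AT-derived MSCs.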

How the results depend on the processing

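The CPM ratios kept the order AT, BM and PB in all settings, but with all barcodes of at least 500 UMIs the share of cells with a *THY1* UMI was lower in AT than in BM. AT over PB (log2 2.86) became 2.74 with all barcodes of at least 500 UMIs and 2.58 with a pseudocount of 25 CPM. BM over PB (2.54) became 2.61 when thinned to 2500 UMIs, 2.67 in G1 cells, 2.31 with TMM factors, 2.32 with DESeq2 size factors and 2.27 with the pseudocount. AT over BM (0.32) became 0.28, 0.20, 0.22, 0.60 and 0.60 when thinned, with at least 500 UMIs, in G1 cells, with TMM and with DESeq2 factors, and 0.27 as a mean of single-cell CPM. Shares of AT, BM and PB cells with a *THY1* UMI became 76.6%, 68.6% and 18.9% when thinned, 55.4%, 89.5% and 43.6% with at least 500 UMIs, and 86.0%, 77.2% and 16.9% at 2 or more UMIs, and that of AT was 95.4% in G1 cells. The range over AT clusters became 0.30 and over BM clusters 0.61 at resolution 0.4, and the latter 1.13 without cell cycle regression.

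Counts of genes past 1.5-fold depended strongly on the settings, and the cause was not tested. In AT (21 genes) they were 38 for 3 or more UMIs, 10 without matching, 65 in G1 cells, 12 with all cells weighted, 1 when thinned, 4 with the pseudocount, 42 without a mitochondrial limit, 201, 0 and 4414 with a minimum of 20, 200 and no CPM, and 1 at 2-fold. In BM (12) they were 3 for 1 or more UMIs, 28 in a second draw, 7 within phase, 4 without matching, 21 without shared barcodes, an alternative chosen after seeing the data, 4 with the pseudocount, 75, 1 and 2353 with the 3 minima, and 1 at 2-fold. In PB (1) they were 5 for 3 or more and 0 for 1 or more UMIs, 2 within phase, 5 without matching, 80 when thinned, 0 in G1 cells, without shared barcodes, with the pseudocount and without a mitochondrial limit, 3, 0 and 554 with the 3 minima, and 0 at 2-fold. Past the ratio in the same direction both in the draw and with all cells weighted were 9 genes in AT, 6 in BM and 1 in PB.

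Of 3682 values of named genes, 3110 kept their sign, which the values with the pseudocount of 25 CPM could not change. By size, 3128 stayed within the counting interval of the reported value, 535 left it, and 19, counted apart, changed sign from a reported value past 1.5-fold. *ACTG2* in BM was reversed in a second draw (-0.24), within clusters (-0.092) and thinned (-0.13), *CALCA* in AT in G1 cells (0.70) and without a mitochondrial limit (0.16), *G0S2* in AT thinned (-0.22), and *UBE2C* in BM without matching (0.0090) and in G1 cells (0.14). *IL11* in AT was -2.64 for 3 or more and -2.63 for 1 or more UMIs, -2.06 within phase, -1.41 within clusters, -1.38 without matching, -2.16 without high Scrublet scores, -2.61 in G1 cells, -1.92 without shared barcodes, -0.39 weighted, -0.43 thinned and -1.41 without a mitochondrial limit. No paired analysis was possible because each source had 1 library and the result comes from no test.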
